A study of Mus musculus with 18 samples.

Results

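The Schlafen genes of the mouse were examined in MPC3, a mouse prostate cancer cell line, after knockdown of Rnf185, which encodes a ubiquitin ligase of the endoplasmic reticulum membrane. The 7 genes Slfn1, Slfn2, Slfn3, Slfn4, Slfn5, Slfn8 and Slfn9, of 47643 genes counted, were taken by symbol. The family was selected on the fold changes of Slfn2 against control, which were large with both hairpins, so their differences from control are given as a description, and no test of them is used as support. RNA came from 18 libraries in 3 groups of 6: control, titled plko and given the treatment Control in the labels, and knockdown with either of 2 short hairpin RNAs (vector-expressed RNAs that lower their target), shRNF185.1 or shRNF185.3. All 3 groups are the same cell line with no other treatment named in the labels, which give neither the hairpin sequences nor the age of the cultures. Libraries 1 and 2 of each group were labelled batch 1, libraries 3 and 4 batch 2, and libraries 5 and 6 batch 3. The labels do not say whether libraries of a group came from separate transductions or cultures, so the spread between them may be partly technical.

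Schlafen proteins carry a shared amino-terminal core, and many members are induced by type I interferon. The short forms Slfn1 and Slfn2 hold little beyond that core, Slfn3 and Slfn4 are longer, and Slfn5, Slfn8 and Slfn9 add a region that resembles RNA and DNA helicases. The family was first known for restraining the growth of thymocytes. Slfn2 is needed for the quiescence of T cells and protects transfer RNA from cleavage, while several long members cut or bind transfer RNA. Interferon acts through receptor-bound Jak kinases on transcription factors that, with Irf9, bind the interferon-stimulated response element in the promoters of responding genes.

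In GENCODE M21 on GRCm38 (the build named mm10 in the submitters' processing notes), all 7 genes lie in a cluster of 335 kb on chromosome 11 that also holds the pseudogene Slfn10-ps and the gene Slfn14. Slfn5 occupies chr11:82951349-82964840 on the plus strand, and its exons overlap those of the antisense gene Slfn5os. Slfn9 (chr11:82978390-82991830) and Slfn8 (chr11:83002158-83020810) follow on the minus strand. Slfn2 (chr11:83065112-83070678), Slfn1 (chr11:83116849-83122670), Slfn4 (chr11:83175186-83190216) and Slfn3 (chr11:83191330-83215154) are on the plus strand.

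The 250 bases before the RefSeq start of transcription are shown for the 4 members with enough reads to be tested. These genes are regulated by interferon in other cells and differed in how far they moved here. Sequences are those of RefSeq for GRCm38.p6, written 5′ to 3′ on the strand of the gene, and capitals mark a match to the interferon-stimulated response element, here GAAA, any 2 bases and GAAA again, on either strand. The windows lie at chr11:82991831-82992080 (minus, Slfn9), chr11:83020811-83021060 (minus, Slfn8), chr11:82951852-82952101 (plus, Slfn5) and chr11:83064862-83065111 (plus, Slfn2).
Slfn9: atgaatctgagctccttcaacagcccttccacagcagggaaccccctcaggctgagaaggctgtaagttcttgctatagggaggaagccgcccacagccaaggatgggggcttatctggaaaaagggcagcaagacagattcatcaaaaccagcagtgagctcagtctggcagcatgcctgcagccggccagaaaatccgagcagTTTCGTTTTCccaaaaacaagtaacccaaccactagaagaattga
Slfn8: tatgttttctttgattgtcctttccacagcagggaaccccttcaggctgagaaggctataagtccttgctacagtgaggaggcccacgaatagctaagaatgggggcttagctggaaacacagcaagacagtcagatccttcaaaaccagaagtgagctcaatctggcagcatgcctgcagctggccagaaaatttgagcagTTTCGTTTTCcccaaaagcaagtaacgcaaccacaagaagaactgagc
Slfn5: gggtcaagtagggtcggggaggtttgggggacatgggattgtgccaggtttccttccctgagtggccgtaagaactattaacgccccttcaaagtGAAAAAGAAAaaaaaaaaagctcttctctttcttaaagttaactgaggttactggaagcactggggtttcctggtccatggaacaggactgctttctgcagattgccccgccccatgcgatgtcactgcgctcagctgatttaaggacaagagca
Slfn2: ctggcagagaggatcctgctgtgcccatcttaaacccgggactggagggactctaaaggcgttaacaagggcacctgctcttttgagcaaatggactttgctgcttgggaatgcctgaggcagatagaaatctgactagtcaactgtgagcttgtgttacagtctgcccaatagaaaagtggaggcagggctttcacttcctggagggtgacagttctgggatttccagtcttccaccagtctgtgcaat

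The promoters of Slfn9 and Slfn8 were close copies, with 206 identical bases of 242 aligned (85.1%). Both carried the match TTTCGTTTTC on the reverse strand, from -45 to -36 relative to the RefSeq start in Slfn9 and from -48 to -39 in Slfn8. Relative to another RefSeq start of Slfn8, the same match lay from -136 to -127. Slfn5 carried GAAAAAGAAA from -155 to -146. Its window (chr11:82951852-82952101) lies inside the GENCODE gene, which starts at chr11:82951349, because the RefSeq start is further downstream. Windows of 300 bases, running 50 bases past the start, were available for all 7 members, and no match was found in those of Slfn2, Slfn1, Slfn3 and Slfn4. The same motif was in 3.44% of 32851 such windows and in the windows of 3.99% of 27025 genes. The gamma-activated site TTCNNNGAA, searched on both strands, matched in 0 of the 7 members. It was in the windows of 9.55% of 27025 genes and in 8.30% of all windows. A match is a description of the letters and does not show binding, and the absence of a match in Slfn2 covers this window only.

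Depth ranged from 22027395 to 43379662 counts per library, so that 3 counts, the most that a count of 0 allows, corresponded to between 0.0701 and 0.133 CPM (library-scaled counts); this covers counting error only. Rnf185 fell with both hairpins, from 35.9 ± 1.96 CPM in control to 5.81 ± 0.582 with shRNF185.1 and to 5.80 ± 0.546 under shRNF185.3 (SD over 6 libraries; edgeR adjusted p = 9.3e-15 and 1.91e-14), and no library went against its label. Control replicate 6 stood apart: its mean over 32 interferon-stimulated genes lay 1.06 log2 units below the control mean, and its Slfn9 level was the lowest of all libraries. Of the prostate markers, Hoxb13 was present, while Pbsn had 0 counts in all libraries and Psca at most 1 count in any. Of 7 epithelial markers, 5 exceeded 1 CPM in every library, but Epcam and Krt5 were near 0, and all 3 mesenchymal markers were present.

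Slfn2 was about 7 times its control level with each hairpin. In control it ranged from 0.188 to 1.07 CPM with a median of 0.504 CPM, in counts 6 to 26 per library. With shRNF185.1 it ranged from 2.27 to 5.75 CPM with a median of 3.90 CPM, and with shRNF185.3 from 2.65 to 4.40 CPM with a median of 3.62 CPM. Every hairpin library, 6 of 6 in both groups, exceeded the highest control value, a pattern shown by 7.01% of all tested genes with shRNF185.1 and by 7.66% with shRNF185.3. The means were 0.532 ± 0.334, 3.74 ± 1.31 and 3.65 ± 0.617 CPM (SD, n = 6 each). The fitted log2 fold changes were 2.85 (SE 0.32, 95% interval 2.18 to 3.51, 7.19-fold) and 2.81 (SE 0.32, 95% interval 2.15 to 3.48, 7.02-fold). Without control replicate 6 they were 2.67 and 2.63. In bulk RNA, more RNA in every cell cannot be told apart from more cells that express the gene. Because Slfn2 is best known in T cells and other blood cells, markers of those were examined. Among 5 T cell markers Cd3e was at 0 in all libraries and Lck alone exceeded 1 CPM in any. Their summed level was 0.959 to 1.47 CPM in control, 1.31 to 1.87 CPM with shRNF185.1 and 1.55 to 2.04 CPM with shRNF185.3. Nearly all of that sum was Lck, since Cd3d, Cd4 and Cd8a held at most 1 count in any library. Lck passed as higher with both hairpins, by a log2 fold change of 0.40 (SE 0.13) and 0.52 (SE 0.13). Of 6 myeloid markers Cd68 alone exceeded 1 CPM, their summed level was 2.48 to 5.16, 1.84 to 3.05 and 2.36 to 3.66 CPM in the 3 groups, and Ptprc, the pan-leukocyte marker CD45, had at most 3 counts in any library.

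**Figure D1:**
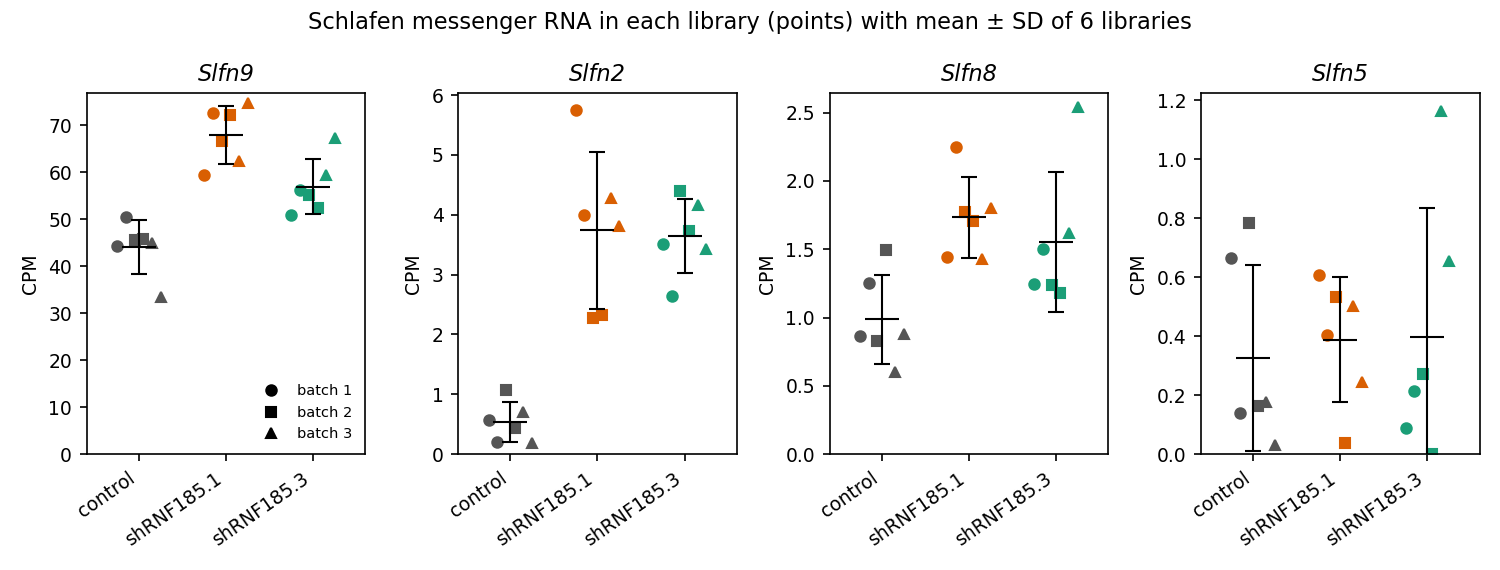
Deposited CPM (y axis, linear, from 0) of the 4 Schlafen genes that passed the filter on low counts, in the control, shRNF185.1 and shRNF185.3 groups (x axis); each point is a library, its shape the batch, with the mean and SD of 6 libraries as bars (lower bars are cut at 0). The hairpin libraries of Slfn2 start at 2.27 CPM against a control maximum of 1.07, Slfn9 also separates from control, and the groups of Slfn8 and Slfn5 overlap.

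Slfn9, a long form, was by far the most abundant member and was moderately higher with both hairpins. It ranged from 33.4 to 50.5 CPM with a median of 45.2 CPM in control, from 59.4 to 74.7 CPM with a median of 69.4 CPM with shRNF185.1, and from 51.0 to 67.2 CPM with a median of 55.7 CPM with shRNF185.3. Again 6 of 6 libraries exceeded the highest control value with each hairpin, although the lowest shRNF185.3 library exceeded it by less than 1 CPM. Of all tested genes, 7.01% showed that pattern with shRNF185.1 and 7.66% with shRNF185.3. The means were 44.1 ± 5.70, 68.0 ± 6.20 and 56.9 ± 5.86 CPM (SD, n = 6 each). The log2 fold change was 0.62 with shRNF185.1 (SE 0.09, 95% interval 0.44 to 0.81, 1.54-fold) and 0.37 with shRNF185.3 (SE 0.09, 95% interval 0.19 to 0.55, 1.29-fold). Without batch 3, which holds control replicate 6, the value with shRNF185.3 was 0.21. Without control replicate 6 alone the values were 0.56 and 0.30.

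Slfn8, the neighbour of Slfn9, ranged from 0.604 to 1.49 CPM in control, with a median of 0.871 CPM. With shRNF185.1 it ranged from 1.43 to 2.25 CPM with a median of 1.74 CPM, and with shRNF185.3 from 1.18 to 2.54 CPM with a median of 1.37 CPM. The groups overlapped: 4 of 6 libraries with shRNF185.1 and 3 of 6 with shRNF185.3 exceeded the highest control. The log2 fold changes were 0.79 (SE 0.22) and 0.64 (SE 0.22), and the second was 0.20 without batch 3. The Slfn8 level is uncertain because 6.99% of its 75-base windows, the length of a read, also occur in transcripts of Slfn9 or Slfn10-ps. The Slfn9 signal over the windows it shares with Slfn8 would amount to 1.15 ± 0.149, 1.78 ± 0.162 and 1.49 ± 0.153 CPM in the 3 groups if reads were spread evenly, as much as the Slfn8 means of 0.987 ± 0.325, 1.73 ± 0.298 and 1.55 ± 0.514 CPM. On average Slfn8 made up 2.25%, 2.54% and 2.69% of Slfn9 in the 3 groups. Single libraries ran from 1.34% to 3.27%, 2.29% to 3.09% and 2.24% to 3.78%. How reads were split between such copies is not given in the sources used here, and its part in the Slfn8 values was not tested. By contrast, 1.70% of the windows of Slfn2 occur elsewhere, in Slfn4, which had almost no reads.

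Slfn5, a long form that can repress interferon-responsive transcription in human cells, was scarce and variable. Its control libraries ranged from 0.0314 to 0.785 CPM with a median of 0.171 CPM. The range was 0.0388 to 0.609 CPM with a median of 0.454 CPM with shRNF185.1, and 0 to 1.16 CPM with a median of 0.243 CPM with shRNF185.3. The 3 groups overlapped almost throughout. The log2 fold changes of 0.32 (SE 0.72) and 0.31 (SE 0.72) were smaller than their errors, and without batch 3 they were -0.07 and -1.55. Slfn5os lies antisense to it, and whether the counting used strand is not given in the sources used here.

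The other 3 members were at or near 0 and were left out of the tests by the filter on low counts. Slfn1, the founding member of the family, had 0 counts in all control and shRNF185.1 libraries and 3 counts in all shRNF185.3 libraries together. Slfn4, a gene of the myeloid lineage, had 0 counts in control, 2.04 estimated counts with shRNF185.1 and 5.52 with shRNF185.3, summed over 6 libraries. Slfn3, studied in T cells and intestinal epithelium, had 4, 2 and 6.57 counts. No fold change is given for these genes, whose levels were at or under what 3 counts per library can show in all but 1 library. Of the Schlafen genes outside the 7, Slfn14 and Slfnl1 had at most 11 counts in any group. Slfn10-ps reached 1.41 ± 0.257, 1.83 ± 0.344 and 1.80 ± 0.530 CPM, but 11.5% of its windows occur in Slfn8 or Slfn9.

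Of the 4 members tested, 3 (Slfn2, Slfn9 and Slfn8) passed an adjusted p of 0.05 as higher with each hairpin and 0 as lower, where 28.9% of all 14309 tested genes passed for shRNF185.1 (14.6% higher, 14.3% lower) and 27.3% for shRNF185.3 (14.2% higher, 13.1% lower). The choice of the family rests on these same contrasts, so nothing is read from that count. The median log2 fold change of the 4 was 0.71 and 0.50, beside -0.02 and -0.02 over all genes tested. Because the 4 include Slfn2, on which the family was picked, nothing is read from these medians either.

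**Figure D2:**
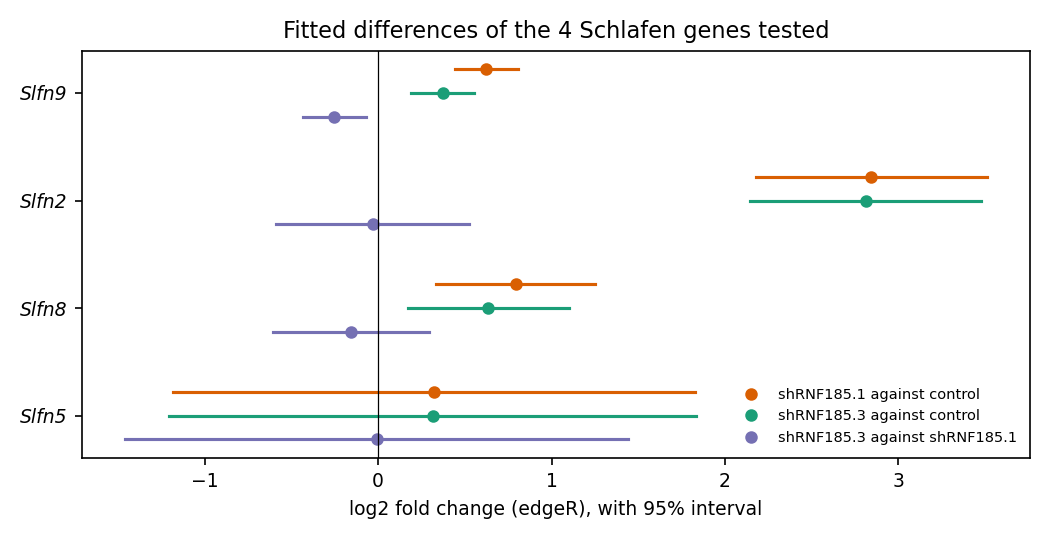
Fitted log2 fold changes (x axis) with 95% intervals for the 4 Schlafen genes tested (y axis), for each hairpin against control and for shRNF185.3 against shRNF185.1. The Slfn2 points lie at 2.85 and 2.81 and nearly coincide, the interval of Slfn9 between the hairpins runs from -0.44 to -0.07, and the intervals of Slfn5 span more than 2 log2 units.

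Expressed per kilobase of exon, so that genes can be compared, the order of the group means was the same in all 3 groups, while the distance of Slfn2 from Slfn8 was not. In control, Slfn9 stood at 7.39 ± 0.955 CPM per kb, followed by Slfn2 at 0.320 ± 0.201 and Slfn8 at 0.241 ± 0.079 CPM per kb, whose ranges overlapped (0.113 to 0.645 and 0.148 to 0.365), and by Slfn5 at 0.052 CPM per kb. With shRNF185.1 Slfn2 reached 2.25 ± 0.786 CPM per kb and its lowest library, 1.36, exceeded the highest for Slfn8, 0.549. With shRNF185.3 Slfn2 was at 2.19 ± 0.371 CPM per kb and its lowest library, 1.59, again exceeded the highest for Slfn8, 0.622. Slfn9 remained first, at 11.4 and 9.54 CPM per kb. Of the family's summed level per length, Slfn2 therefore made up 3.90% in control, 15.9% with shRNF185.1 and 18.02% with shRNF185.3, and Slfn9 92.4%, 80.6% and 78.2%. The summed CPM of all 7 members was 45.95 ± 5.99, 73.9 ± 5.65 and 62.6 ± 6.73, most of it Slfn9.

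The 2 hairpins were compared with each other. This contrast was not the rule of choice, but the choice used the Slfn2 values of both hairpin groups. In edgeR 0 of the 4 members passed an adjusted p of 0.05, where 14.7% of all tested genes did (7.72% higher, 6.94% lower); 1 of the 4 had an unadjusted p under 0.05, and DESeq2 called 1 and limma-voom 0. That gene was Slfn9, which was lower with shRNF185.3 by a log2 fold change of -0.25 (SE 0.09, 95% interval -0.44 to -0.07; edgeR adjusted p = 0.058). In 4 of 6 shRNF185.3 libraries Slfn9 lay below the lowest shRNF185.1 library (for 3.66% of all genes 6 of 6 did so), and in batches 1, 2 and 3 the difference was -0.29, -0.36 and -0.11. The call depended on the setting: the adjusted p was 0.037 with DESeq2, 0.00756 without batch 3, 0.0173 without control replicate 6, 0.0385 without shRNF185.1 replicate 1 and 0.0244 without shRNF185.3 replicate 6. Slfn2 differed by -0.03 (95% interval -0.59 to 0.53, edgeR adjusted p = 0.968), so the interval of the ratio between hairpins runs from 0.664 to 1.44. Because Slfn2 was picked for a strong rise with both hairpins, no agreement between them is read from this value. For Slfn8 the value was -0.16 (95% interval -0.61 to 0.29, adjusted p = 0.741), and for Slfn5 it was -0.01 (95% interval -1.46 to 1.44, adjusted p = 0.996).

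The deposited counts had already been adjusted with ComBat-Seq, and whether that adjustment knew the groups is not given in the sources used here. With that limit, differences from control were also taken within each batch of 2 libraries per group. For Slfn2 they were 3.53, 1.62 and 3.19 on the log2 CPM scale in batches 1, 2 and 3 for shRNF185.1, and 2.89, 2.43 and 3.10 for shRNF185.3. All 6 values were above 1.5, and the lowest came from batch 2, where both shRNF185.1 libraries were near 2.3 CPM and the control libraries held the highest control value. For Slfn9 shRNF185.1 gave 0.47, 0.60 and 0.82, and shRNF185.3 gave 0.18, 0.24 and 0.71. For Slfn8 they were 0.75, 0.61 and 1.06, and 0.38, 0.11 and 1.40. Slfn5 changed sign between batches, with 0.53, -0.80 and 1.42, and -0.88, -1.53 and 2.57. Whether the mean effect of both hairpins differed between batches was tested in edgeR with 2 degrees of freedom. The test takes no account of the earlier batch adjustment. Across all tested genes 14.2% passed, and of the 4 members 0 passed, 0 at an unadjusted p under 0.05, and 0 with limma-voom or DESeq2, where Slfn5 had no adjusted p. The adjusted p-values were 0.316 for Slfn2, 0.199 for Slfn5, 0.244 for Slfn8 and 0.196 for Slfn9. With no filter on low counts the adjusted p became 0.0493 for Slfn2 and 0.000707 for Slfn5, and without control replicate 5 it was 0.0487 for Slfn9.

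**Figure D3:**
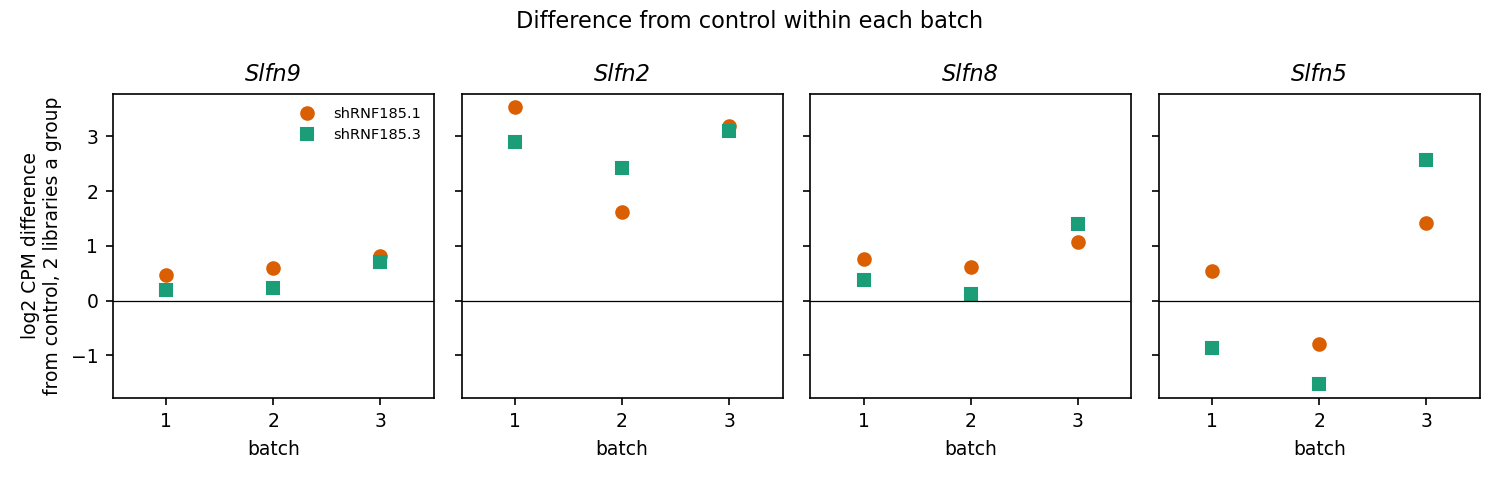
Mean log2 CPM of the 2 hairpin libraries minus that of the 2 control libraries (y axis) in batches 1, 2 and 3 (x axis), for Slfn9, Slfn2, Slfn8 and Slfn5. The values of Slfn2 run from 1.62 to 3.53, those of Slfn9 and Slfn8 are all above 0, and those of Slfn5 fall on both sides of 0.

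Because Schlafen genes respond to interferon, the genes of that pathway were followed in the same libraries, by lists that hold no Schlafen gene. Of 32 interferon-stimulated genes, 28 rose with shRNF185.1 and 28 with shRNF185.3, and 0 fell with either, where 14.6% and 14.2% of all tested genes rose. The median log2 fold change of the list was 1.97 and 1.88, beside -0.02 and -0.02 over all genes. Without control replicate 6, 26 and 26 rose, with medians of 1.79 and 1.72. Without batch 1, 22 and 24 rose, and without batch 2, 27 and 27. Without batch 3, 27 and 20 rose and 1 fell with each hairpin, with medians of 1.72 and 1.31. The interferon-stimulated GTPase Irgm1 rose from 58.8 ± 22.6 CPM in control to 101 ± 13.0 and 90.2 ± 22.3 CPM (SD, n = 6 each). Its log2 fold changes were 0.78 (SE 0.22) and 0.62 (SE 0.22). Trim25, a ubiquitin ligase of RNA sensing, rose with shRNF185.1 by 0.39 (SE 0.14) and had a value of 0.17 (SE 0.14) with shRNF185.3. The RNA-activated kinase Eif2ak2 passed in neither contrast, at -0.10 (SE 0.12) and 0.30 (SE 0.12). Bst2, which holds budding virions at the membrane, rose with shRNF185.3 by 3.09 (SE 0.82), where single libraries ranged from 16.9 to 681 CPM, and stood at 1.96 (SE 0.80) with shRNF185.1.

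The signalling genes upstream had smaller median fold changes. Of 22 listed, 17 were tested. With shRNF185.1, 9 rose and 0 fell, with a median log2 fold change of 0.25. With shRNF185.3, 6 rose and 2 (Irf3 and Jak2) fell, with a median of 0.19. Over all tested genes 14.6% and 14.2% rose, and 14.3% and 13.1% fell. The list's counts moved with the libraries used: 4 and 2 rose without batch 1, 13 and 9 without batch 2, and 3 and 3 without batch 3. Without control replicate 6, 9 and 4 rose. The transcription factor Stat2 had log2 fold changes of 0.63 (SE 0.35) and 0.51 (SE 0.35), which did not pass. Irf9, its partner in binding DNA, rose with shRNF185.1 by 0.85 (SE 0.27) and stood at 0.58 (SE 0.27) with shRNF185.3. Irf7, an interferon-induced factor, rose with shRNF185.1 by 1.74 (SE 0.45) and stood at 1.23 (SE 0.46) with shRNF185.3. The receptor kinase Jak1 rose with both, by 0.25 (SE 0.07) and 0.23 (SE 0.07). Its relative Jak2 fell by 0.52 (SE 0.11) on the log2 scale with shRNF185.3, and with shRNF185.1 it stood at -0.23 (SE 0.11). Stat3 rose with shRNF185.1 by 0.45 (SE 0.11) and stood at 0.14 (SE 0.11) with shRNF185.3. The interferon ligands were hardly seen: no library held more than 3 counts of Ifnb1, 2 of Ifng, 1 of Ifna4 or 0 of Ifnl3.

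Genes of transfer RNA cleavage and ribosome stalling, the processes in which Schlafen proteins act, were also followed. Of 12 listed, 10 were tested, and 1 rose and 1 fell with each hairpin, with medians of 0.01 and 0.02, where 28.9% and 27.3% of all tested genes passed in either direction. With the library pairs of each group and batch summed, 0 rose and 0 fell with shRNF185.1, and 1 rose and 0 fell with shRNF185.3. Zfp598, which senses collided ribosomes, fell from 96.5 ± 6.74 CPM to 82.7 ± 6.52 and 82.9 ± 5.18 CPM, that is by 0.22 (SE 0.06) on the log2 scale with each. Ascc3, a helicase that splits such ribosomes, rose with shRNF185.1 by 0.26 (SE 0.08) and stood at 0.09 (SE 0.08) with shRNF185.3. Eif2ak4, the kinase that reads uncharged transfer RNA, rose with shRNF185.3 by 0.21 (SE 0.04), stood at -0.03 (SE 0.04) with shRNF185.1, and was named after its value was seen. Rnh1, the inhibitor of the transfer RNA nuclease angiogenin, had values of 0.13 (SE 0.07) and -0.03 (SE 0.07), and the GTPase Gtpbp1 had 0.01 (SE 0.05) and -0.08 (SE 0.05); neither passed.

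The position of the family in a cluster allows its neighbours to be read beside it. Within 500 kb on either side, 15 other genes were tested, and over all tested genes 28.9% and 27.3% passed with shRNF185.1 and shRNF185.3. With shRNF185.1, 4 rose and 2 fell, with a median log2 fold change of 0.08 and a range from -0.66 to 1.51. With shRNF185.3, 3 rose and 1 fell, with a median of 0.02 and a range from -0.40 to 1.23. The highest in both was Ccl5, an interferon-responsive chemokine gene, which is named after its values were seen.

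**Figure D4:**
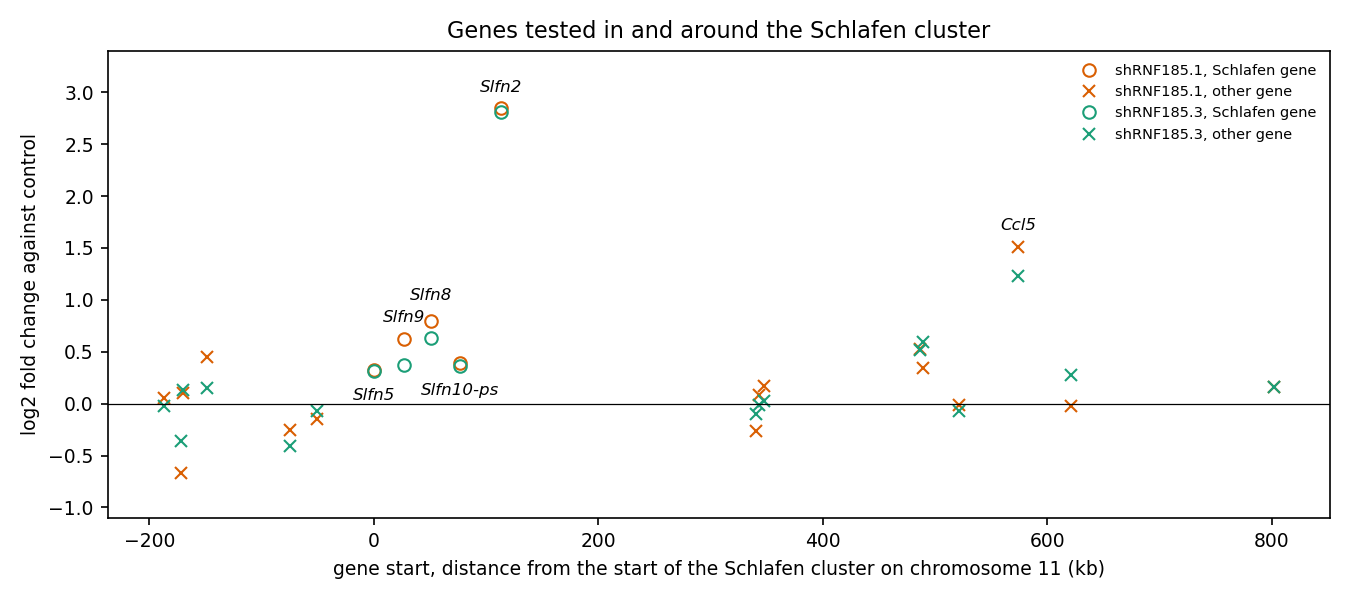
Log2 fold change against control (y axis) of each tested gene on chromosome 11 by the distance of its lower coordinate from that of the Schlafen cluster in kb (x axis); circles are Schlafen genes, crosses are other genes, and colours are the hairpins. Slfn2 reaches 2.85 and 2.81, Ccl5 follows at 1.51 and 1.23, and the remaining neighbours lie between -0.66 and 0.59.

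Variation between libraries of a group was then described, after the group means were removed, over 18 libraries; these correlations share libraries and depth and are given without a test. Slfn2 went most closely with Crebl2 (r = 0.94, rho = 0.92), Entpd7 (r = 0.93, rho = 0.93), Edem1 (r = 0.93, rho = 0.83), Acsl3 (r = 0.92, rho = 0.94) and Tmf1 (r = 0.91, rho = 0.91), out of 11694 candidate genes. The fold changes of these 5 genes against control lay between -0.24 and 0.31 on the log2 scale, far below that of Slfn2. Slfn9 went with Yap1 (r = 0.82, rho = 0.78), Gm14270 (r = 0.80, rho = 0.85), Zfp512 (r = 0.78, rho = 0.78), Dcaf12 (r = 0.78, rho = 0.62) and Lrrc75a (r = 0.78, rho = 0.85). With the mean of the 32 interferon-stimulated genes, r was 0.71 for Slfn2 (rho = 0.59) and 0.81 for Slfn5 (rho = 0.77). It was 0.44 for Slfn9 (rho = 0.29) and 0.18 for Slfn8 (rho = 0.26). That mean was higher in the odd-numbered library of every pair of one group and batch, and the part of this in the correlations was not tested. Among the members themselves r was 0.57 (rho = 0.71) for Slfn9 with Slfn8, which share sequence, and 0.53 (rho = 0.54) for Slfn2 with Slfn5. For Slfn2 it was 0.09 (rho = -0.15) with Slfn9 and -0.35 (rho = -0.51) with Slfn8.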

How the data were processed

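Polyadenylated RNA from 18 libraries of MPC3 cells was sequenced as single-end reads of 75 bases from a directional kit, per the labels' protocols. The authors deposited gene counts and CPM, both adjusted with ComBat-Seq per the labels. Cutadapt 2.3, STAR 2.7.0d, RSEM 1.3.1 and mm10 are named in the submitters' processing notes, without their roles. The annotation, the strand setting and whether the batch adjustment knew the groups are not given in the sources used here. The counts the authors deposited are estimated counts, since 0.466% are not whole, and they were rounded before the count test, which had been planned for whole counts. The deposited CPM are a normalised signal, since library sums run from 969986 to 1026394. They cover 15386 genes.

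Symbols matched 99.1% of identifiers. Counts were fitted with edgeR 4.0.16 in R 4.3.3: filterByExpr (minimum count 10) kept 14309 genes, TMM scaling, no covariate besides group, all 18 libraries together, and the quasi-likelihood F test with Benjamini-Hochberg adjustment over all genes (threshold 0.05). Whether the hairpin effect differed between batches was tested with a mean for every batch of every group. Values per library are deposited CPM, and log2 CPM for correlations used a prior count of 2. Fits were tested on simulated data. Libraries of a group differed by more than sampling noise in all 45 pairs (chi-square of 7.64 to 84.4 per gene).

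The members and lists were chosen with earlier results of these data known. Named genes were the members, the 4 most abundant tested genes of each list, Stat2, Irf7, Irf9 and the ligands, and the 5 genes most correlated with Slfn2 and Slfn9; some genes of these lists are not reported here. Alternatives were other scalings, no filter, DESeq2 1.42.0, limma-voom (limma 3.58.1), a batch covariate, the replicate number as a block, summed paralogues, summed library pairs, and leaving out each batch or library.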

Additional observations from a re-analysis of the deposited data

Results flagged for a closer look

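Slfn9 in control replicate 6 was far from the other control libraries, at 5.06 log2 CPM where the next lowest control was at 5.47. The gap was 0.69 of the range of the 6 libraries. Of 15 sets of 6 libraries examined this way, 1 stood out, where chance gives 0.75. The same library had the lowest mean of the interferon-stimulated list among the controls, 1.06 log2 units below the control mean.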

How the results depend on the processing

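The log2 fold changes of Slfn2 against control stayed between 2.44 and 3.42 with shRNF185.1 and between 2.63 and 3.10 with shRNF185.3 over 30 alternatives each, and those of Slfn9 stayed positive, at 0.54 to 0.70 and 0.21 to 0.47. Summing Slfn8, Slfn9 and Slfn10-ps into 1 row gave 0.62 and 0.38, and -0.24 between the hairpins (adjusted p = 0.072). Without batch 3 the shRNF185.3 values were 0.20 for Slfn8 and 0.21 for Slfn9. For Slfn5 against control the sign turned without batch 3 (-0.067 with shRNF185.1, -1.55 with shRNF185.3) and, with shRNF185.3, under limma-voom (-0.12) and in the range over left-out libraries (-0.36 to 0.74, the lowest without shRNF185.3 replicate 5). Between the hairpins, the sign of Slfn2 turned under limma-voom (0.024) and without batch 1 (0.31), with -0.14 to 0.13 over left-out libraries; that of Slfn5 turned under DESeq2 (0.034) and without batch 1 (0.60) or batch 2 (0.26), with -0.69 to 0.29. The Slfn9 difference between the hairpins was -0.20 to -0.33 throughout, with adjusted p from 0.00756 to 0.32, 0.0499 when scaled by library size alone.

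Counts of called genes were 2207 with shRNF185.1 without batch 1, 2120 and 2501 with shRNF185.3 without batch 1 and without batch 3, and 753 and 1208 between the hairpins without batch 1 and without batch 2. Over left-out libraries they were 3692 to 4215, 3338 to 3995 and 1696 to 2283. Genes whose effect differed between batches numbered 3132 with no filter, 86 without batch 2, 497 without batch 3 and 804 to 2486 over left-out libraries, lowest without control replicate 4. Leaving out a batch removes 6 libraries; the causes were otherwise not tested. Once group means were removed, r averaged -0.0144 for same-numbered libraries of different groups (18 pairs, lowest -0.63), -0.43 for the other number of the same batch and 0.11 across batches. Since not every same-numbered pair was above 0.1, the numbers were not taken to pair the libraries, although odd-numbered and even-numbered libraries differed for many genes. With the replicate number as a block, 3811, 3578 and 1976 genes passed in the 3 contrasts, Slfn2 stood at 2.87 and 2.84, and Slfn9 between the hairpins at -0.25 (adjusted p = 0.0995); under the block no member gained or lost a call between the hairpins. The list counts under alternatives were added after the data were seen: with library pairs summed, 5 and 3 signalling genes rose. At this depth Slfn1, Slfn3 and Slfn4 could not be compared.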

Other observations

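Within a batch the odd-numbered and even-numbered libraries of a group differed for some members, although the labels give the numbers no meaning. Slfn2 was higher in the odd-numbered library in 8 of 9 pairs of one group and batch, and so was Slfn5, while Slfn8 and Slfn9 were higher there in 2 of 9 pairs each. The mean of the interferon-stimulated list was higher in the odd-numbered library in every pair. Among the genes that varied most like Slfn2, the odd-numbered library was higher in 9 of 9 pairs for Acsl3 and Tmf1, 8 for Entpd7 and Edem1 and 7 for Crebl2. Over all 14309 tested genes, 14.3% were higher in the odd-numbered library in at least 8 of the 9 pairs, and 12.3% were lower there in as many. What the numbers stand for was not tested.

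Some epithelial markers moved in the same libraries as the Schlafen genes. The adhesion protein gene Cdh1 fell by 1.91 (SE 0.25) and 2.13 (SE 0.25) on the log2 scale, and the keratin Krt18 fell by 1.00 (SE 0.05) and 1.25 (SE 0.05), with shRNF185.1 and shRNF185.3 respectively; both were named after their values were seen. Krt8 fell by 0.53 (SE 0.07) and 0.52 (SE 0.07), and Krt14 fell by 0.49 (SE 0.16) with shRNF185.1. Krt14 stood at -0.42 (SE 0.16) with shRNF185.3 and did not pass. Krt19, at -0.26 (SE 0.36) and -0.77 (SE 0.37), passed with neither hairpin, and Krt5 and Epcam were not tested. Over all tested genes 14.3% and 13.1% fell. The summed level of the 7 epithelial markers was 1720 to 2551 CPM in control, 1021 to 1759 CPM with shRNF185.1 and 1180 to 1383 CPM with shRNF185.3. Their part in the Schlafen values was not tested.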
